A study of Bos taurus with 56 samples.

Results

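The amino acid transporter families of the bovine oviduct epithelium were described gene by gene from read counts of 56 RNA-seq libraries. The members were all symbols of the count table beginning with SLC1A, SLC3A, SLC6A, SLC7A, SLC36A, SLC38A or SLC43A, which gave 55 of 31903 listed genes. Of these, 38 had a mean of at least 1 CPM over all libraries (CPM, the reads of a gene relative to all reads assigned to genes in its library, with library sizes scaled by the trimmed mean of M-values) and were compared between conditions. The other 17 were below that level and are listed as silent. Of all listed genes 48.2% reached 1 CPM, against 69.1% of the members.

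The libraries came from 14 Holstein animals, namely 5 heifers that had never calved, 5 post-partum non-lactating cows that were never milked after calving and 4 post-partum lactating cows, the cows being about 60 days post-partum. In all 3 groups oestrus had been synchronized with a progesterone device, a prostaglandin analogue and the GnRH analogue buserelin, and the oviducts were taken at slaughter on Day 3 after oestrus. Each animal gave epithelium, scraped gently from the mucosa, from 2 regions, the ampulla (the ovarian end) and the isthmus (the uterine end), on the side of the corpus luteum (CL) and on the opposite side. The 12 conditions are therefore metabolic group by region by side, ipsilateral or contralateral to the CL. Animals are lettered within their group here, in the order of their numbers.

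Amino acid carriers of the solute carrier (SLC) superfamily move amino acids across the plasma membrane and between the cytosol and the lysosome. They differ in what drives them: sodium-coupled carriers load the cell against a gradient, exchangers swap an internal amino acid for an external one, and facilitators let amino acids follow their gradient. The light chains of the SLC7 family reach the cell surface bound to a heavy chain, SLC3A2 or SLC3A1. In the oviduct, the epithelium contributes to the fluid in which fertilization and the first cleavages take place. The paper also names filtered blood and a possible input from the follicle as sources. Glycine, glutamate, alanine and taurine are known as abundant free amino acids of that fluid, which was not measured here.

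Depth ranged from 1901454 to 6836850 reads assigned to genes per library (median 4931502.5), so that 3 reads, taken as the floor of detection, corresponded to 0.445 to 1.55 CPM. The floor covers counting error only, and the standard errors of the fits cover the spread between animals. The epithelial identity of the scrapings was checked against marker genes. The 10 ciliated cell markers summed to 4408 to 11168 CPM and the 7 secretory cell markers to 648 to 38247 CPM. HBB and HBA, the globin markers of blood, were at 0 in every library. The red blood cell markers ALAS2 and SLC4A1 had reads in 4 and 3 libraries. Whether the globin genes could be counted was not tested, so these values do not show that blood was absent. Secretory marker medians were 10633 CPM contralateral and 13077 CPM ipsilateral in the isthmus and 8687 and 10326 CPM in the ampulla. OVGP1 carried most of these sums, with a mean of 9926 CPM in the ampulla and 9544 CPM in the isthmus. By mean, PAX8 (123 and 113 CPM) and MSLN (187 and 63.6 CPM) were also lower in the isthmus. LTF (180 and 941 CPM), WFDC2, MUC1 and SPP1 were higher there. Ciliated marker sums were lower in the isthmus (median 6746 CPM contralateral, 5880 CPM ipsilateral) than in the ampulla (8766 and 8029 CPM). Sums over 4 endothelial markers were also lower in the isthmus (43.7 and 28.7 CPM, against 202 and 135 CPM), with KDR carrying most of them. Sums over 7 smooth muscle markers were higher in the isthmus (40.8 and 55.6 CPM, against 21.2 and 20.8 CPM), through MYH11 (mean 1.15 CPM in the ampulla, 39.8 CPM in the isthmus). ACTA2 (12.4 and 8.32 CPM), DES (2.99 and 1.59 CPM) and SMTN (4.25 and 1.51 CPM) were lower in the isthmus, and CNN1, TAGLN and ACTG2 averaged no more than 0.177 CPM in either region. The 8 nerve and glia markers, nearly all of it S100B, had median sums of 290 and 347 CPM in the isthmus and 402 and 579 CPM in the ampulla. Fibroblast marker medians (6 genes) ran from 23.7 to 36.3 CPM and leukocyte medians (8 genes) from 19.8 to 28.6 CPM over regions and sides. These sums moved with region and with side, and their part in the differences of the transporters between regions and between sides was not tested. In bulk samples, fewer cells of a type and less RNA per cell cannot be told apart.

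In 4 of the 14 ipsilateral ampulla libraries, the expression of 200 genes that separate animals correlated better with another animal than with the animal whose number the library carries. The libraries of Heifer B (r = 0.286 with its own animal, 0.854 with Non-lactating B) and Non-lactating B (0.337 with its own, 0.853 with Heifer B) matched each other. A non-lactating library carrying the number of Lactating B (0.104) matched Non-lactating C (0.727), and a lactating library carrying the number of Non-lactating C (0.144) matched Lactating B (0.828). These 4 are called the doubtful libraries, and counts of members called in comparisons with the ipsilateral ampulla are also given without them, with the calls that were lost. Their omission leaves 10 of the 14 ipsilateral ampulla libraries. Whether a call was lost through the labels or through the smaller number of libraries was not tested. Condition means, summed levels, the gene lists below and the shares of all genes include the doubtful libraries. Isthmus and contralateral ampulla libraries all matched their own animals.

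The expressed members covered all 7 families: 5 of 6 SLC1A genes, 1 of 2 SLC3A, 10 of 18 SLC6A, 9 of 12 SLC7A, 3 of 4 SLC36A, 7 of 10 SLC38A and all 3 SLC43A. Of the 38, 26 were above the floor in all 56 libraries. Without gene lengths, a level in CPM compares 1 gene between libraries and does not rank genes. The symbol SLC7A6OS falls under the naming rule but belongs to the gene opposite SLC7A6, which is not a transporter, and both are given as uncertain where their transcripts overlap, although the counting used strand.

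The silent members were SLC1A7, SLC3A1, SLC6A2, SLC6A3, SLC6A4, SLC6A7, SLC6A12, SLC6A13, SLC6A18, SLC6A19, SLC7A3, SLC7A9, SLC7A14, SLC36A3, SLC38A3, SLC38A4 and SLC38A8. Both chains of the renal cystine exchanger, SLC3A1 and SLC7A9, were among them, as were the monoamine carriers for noradrenaline, dopamine and serotonin, SLC6A2, SLC6A3 and SLC6A4. SLC6A19, the neutral amino acid carrier of gut and kidney brush borders, had the highest mean of the silent genes (0.848 CPM, at most 4.88 CPM in a library). SLC6A18, its kidney relative, was the lowest, with 1 read in 1 library. The floor of 3 reads was passed in no library by 3 silent members and in at least 10 libraries by 7, so silence here means a low mean at this depth. At the threshold, SLC38A3 (0.728 CPM) and SLC6A19 (0.848 CPM) lay just outside, and SLC1A2 (1.09 CPM) and SLC6A6 (1.24 CPM) just inside. A limit of 0.5 CPM would have kept 42 members and a limit of 2 CPM would have kept 32.

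Among the 38 expressed members, the 12 condition means of a gene spanned a high-to-low ratio of at least 1.26 and a median ratio of 3.05, and the ratio reached 2 in 29 genes. The highest condition was an isthmus condition for 24 members and an ampulla condition for 14. No share over all genes stands beside these counts. Spread between animals alone sets the highest of 12 means above the lowest. For members near the floor, such as SLC38A11 (0.0491 to 4.45 CPM), the ratio rests on few reads. Together the members took 1226 to 2235 CPM in the contralateral isthmus (median 1801), 1447 to 2167 CPM in the ipsilateral isthmus (1819), 799 to 1306 CPM in the ipsilateral ampulla (1078) and 738 to 1103 CPM in the contralateral ampulla (913). A few genes weigh most in these sums. SLC6A9, SLC1A4, SLC38A2, SLC3A2 and SLC1A1, the highest 5 by mean, made up 56.5% of the summed mean of the expressed members. The sums also hold SLC43A3, a nucleobase carrier, and SLC7A6OS, which is not a transporter. Without the doubtful libraries the ipsilateral ampulla had the same range and a median of 1060 CPM. All ipsilateral isthmus libraries lay above all ampulla libraries, whereas the lowest contralateral isthmus library fell inside the range of the ipsilateral ampulla.

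**Figure D1:**
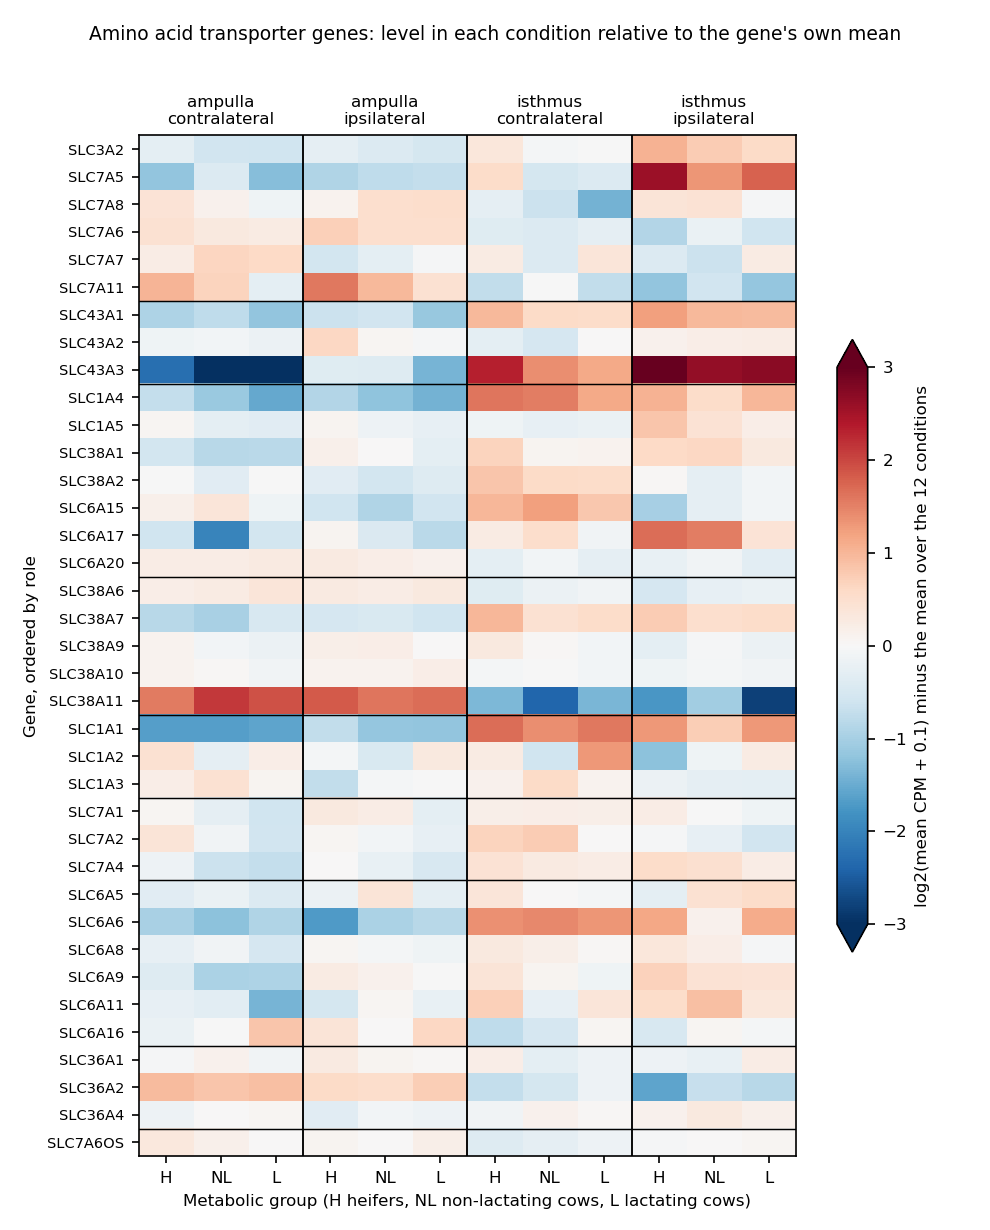
Heat map of 37 expressed members (rows) over the 12 conditions (columns). Colour gives log2 of the condition's mean CPM plus 0.1, minus the gene's mean over the 12 conditions, with the scale ending at -3 and 3. SLC43A3 spans the widest range, from 0.135 CPM in the contralateral ampulla of lactating cows to 141 CPM in the ipsilateral isthmus of heifers.

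The condition means, from the lowest to the highest condition, are ordered by role. SLC3A2, the heavy chain, ran from 59.6 CPM in the contralateral ampulla of lactating cows to 184 CPM in the ipsilateral isthmus of heifers, the same ends as for its partner SLC7A5 (LAT1, a large neutral amino acid exchanger), which ran from 5.00 to 73.7 CPM. SLC7A8 (LAT2) stayed between 1.31 and 5.31 CPM. The exchangers of cationic for neutral amino acids, SLC7A6 and SLC7A7, ran from 15.2 to 46.2 CPM and from 2.13 to 5.35 CPM. SLC7A11, the cystine-glutamate exchanger, stayed between 0.436 and 3.51 CPM. These chains peaked in different regions: SLC7A6, SLC7A7, SLC7A8 and SLC7A11 had their highest mean in an ampulla condition.

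SLC43A1 and SLC43A2, facilitators of large neutral amino acids, ran from 15.5 to 83.7 CPM and from 5.70 to 12.5 CPM. SLC43A3, which carries purine nucleobases in spite of its family name, ran from 0.135 to 141 CPM. The exchangers of small neutral amino acids, SLC1A4 (ASCT1) and SLC1A5 (ASCT2, a glutamine exchanger), ran from 58.4 to 515 CPM and from 29.2 to 65.4 CPM. SLC38A1 and SLC38A2, sodium-coupled carriers of glutamine and alanine, ran from 16.0 to 45.7 CPM and from 77.2 to 201 CPM. SLC6A15, a carrier of branched-chain amino acids and proline, ran from 3.41 to 16.4 CPM, its vesicular relative SLC6A17 from 0.514 to 7.61 CPM, and the imino acid carrier SLC6A20 from 40.9 to 61.2 CPM. Each of these but SLC43A2 and SLC6A20 had its highest mean in the isthmus.

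Of the carriers placed on inner membranes or little studied, SLC38A7 (lysosomal glutamine export) ran from 11.5 to 45.1 CPM and SLC38A9, the lysosomal arginine sensor, from 11.4 to 17.2 CPM. SLC38A6 lay between 25.7 and 46.6 CPM, SLC38A10 between 43.7 and 55 CPM and SLC38A11 between 0.0491 and 4.45 CPM. The glutamate carriers SLC1A1 and SLC1A3 ran from 17.2 to 176 CPM and from 6.72 to 16.9 CPM, and SLC1A2 stayed at 0.377 to 2.65 CPM. For the cationic group, SLC7A1 ran from 6.13 to 11.5 CPM and SLC7A2 from 8.24 to 21.0 CPM, with SLC7A4, a relative without a known substrate, at 4.85 to 11.9 CPM.

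SLC6A9, the glycine carrier GlyT1, ran from 124 to 391 CPM, and SLC6A5, the neuronal glycine carrier GlyT2, from 1.22 to 2.49 CPM. The GABA carrier SLC6A11 ran from 0.680 to 3.72 CPM, the taurine carrier SLC6A6 from 0.206 to 2.62 CPM, the creatine carrier SLC6A8 from 25.5 to 46.0 CPM and the orphan SLC6A16 from 5.03 to 15.4 CPM. Among the proton-coupled carriers, SLC36A1, which exports small amino acids from lysosomes, ran from 5.20 to 7.65 CPM, SLC36A2 from 3.04 to 17.9 CPM and SLC36A4 from 22.1 to 34.2 CPM. SLC7A6OS lay between 43.3 and 70.5 CPM.

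The comparison of the isthmus with the ampulla asked how far the same epithelium differs along the tube. The fits of regions and of sides held no animal term, although each animal gave libraries to both regions and both sides. On the ipsilateral side, 24 of 36 members tested were called at an adjusted p under 0.05 by edgeR's quasi-likelihood test, where 50.3% of all genes tested were called. Of the 24, 16 were higher in the isthmus (24.5% of all genes) and 8 lower (25.8% of all genes). The median log2 difference was 0.20 for the members and -0.02 for all genes. Without the doubtful libraries 22 were called, 15 higher and 7 lower. On the contralateral side, 23 of 39 members tested were called against 43.5% of all genes, 16 higher (21.5% of all genes) and 7 lower (22%), with a median of 0.42 against -0.01 for all genes. By role, 5 of 7 small neutral carriers were higher and 1 lower on each side, and 2 of 3 SLC43A carriers were higher and none lower on each side. Of the 36 members tested on both sides, 19 were called on both, 14 higher and 5 lower, and none in opposite directions. Of all 14991 genes tested on both sides, 32.1% were called on both, 15.6% higher, 16.1% lower and 0.447% in opposite directions.

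**Figure D2:**
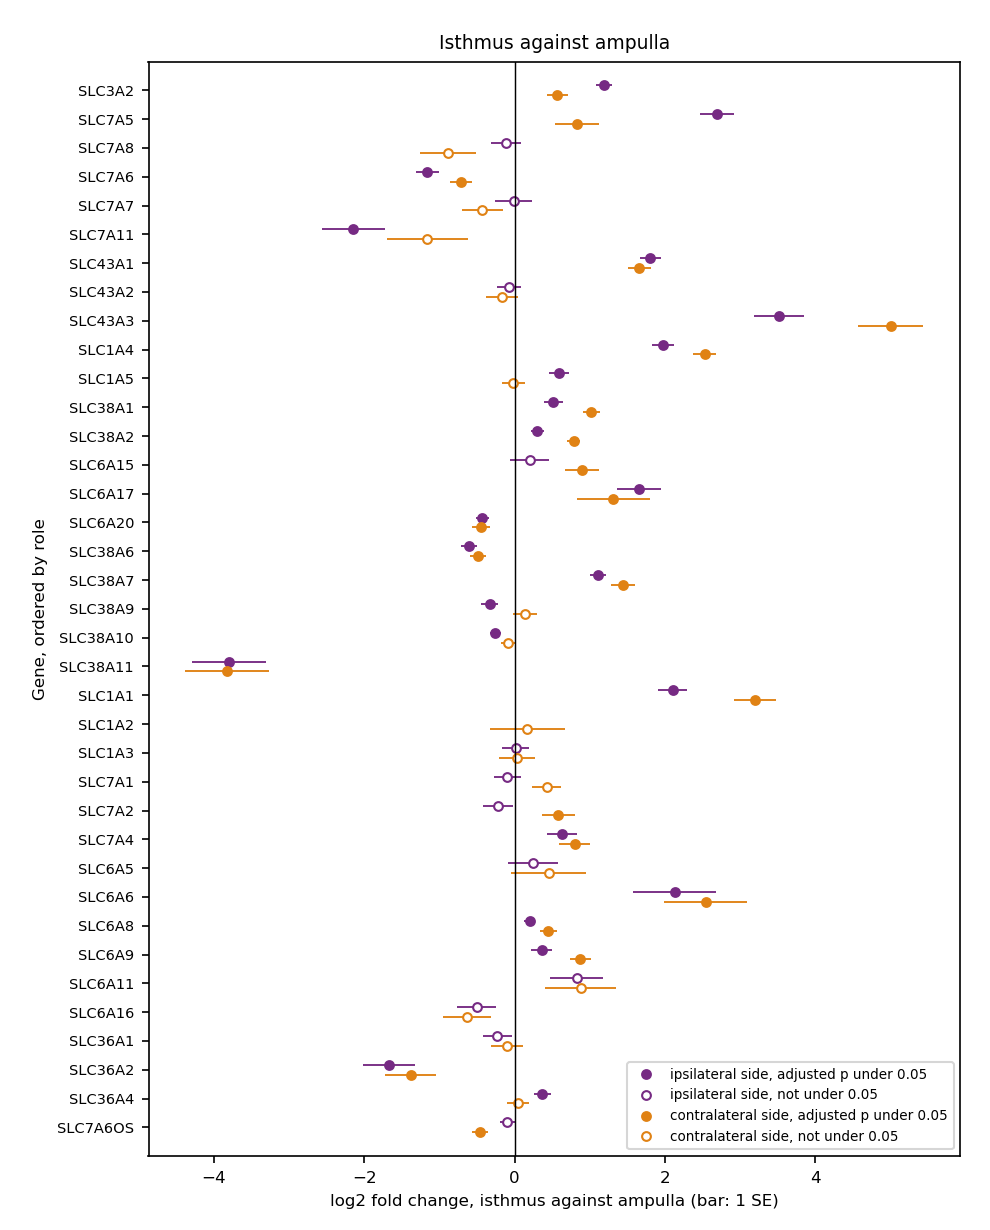
Log2 difference of 37 expressed members between isthmus and ampulla, with bars of 1 standard error, on the ipsilateral (purple) and contralateral (orange) side, 14 libraries per region and side. Filled points had an adjusted p under 0.05 and a missing point was not tested. SLC43A3 (3.51 and 5.00) and SLC38A11 (-3.80 and -3.82) stand at the 2 ends on both sides.

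Among exchangers and the heavy chain, SLC7A5 had 23.9, 40.3 and 124 CPM as lowest, median and highest value in the ipsilateral isthmus and 1.68, 7.43 and 12.1 CPM in the ipsilateral ampulla. All isthmus libraries were above all ampulla libraries. The log2 difference was 2.69 ± 0.23 (SE, n = 14 against 14; edgeR adjusted p = 5.81e-11), and 2.74 ± 0.27 without the doubtful libraries (6.60e-09). SLC3A2 had 108, 153 and 239 CPM in the isthmus against 45.7, 64.6 and 109 CPM in the ampulla, where only the highest ampulla library reached the isthmus range, and differed by 1.19 ± 0.11 (edgeR adjusted p = 1.75e-10; 1.16 ± 0.11 without the doubtful libraries). On the contralateral side both were less far apart, SLC3A2 by 0.57 ± 0.14 (edgeR adjusted p = 0.00104) and SLC7A5 by 0.83 ± 0.29 (edgeR adjusted p = 0.0209), and the call for SLC7A5 was lost without Heifer C, whose contralateral isthmus held 46.0 CPM. SLC7A6 went the other way, with 6.16, 20 and 27.4 CPM in the ipsilateral isthmus and 28.6, 43.1 and 53.2 CPM in the ampulla, without overlap (log2 difference -1.16 ± 0.16, edgeR adjusted p = 4.82e-07; -1.13 ± 0.17 without the doubtful libraries). It was also lower contralaterally (-0.71). SLC7A11 was lower ipsilaterally (-2.15), from a mean of 2.51 CPM in the ampulla to 0.537 CPM in the isthmus, and SLC7A6OS contralaterally (-0.46).

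SLC43A3 had the largest rise of the members on both sides. It held 42.4, 112 and 189 CPM in the ipsilateral isthmus against 1.58, 7.15 and 24.6 CPM in the ampulla, and 12, 41.2 and 169 CPM against 0, 1.19 and 6.19 CPM on the contralateral side. The regions did not overlap on either side. The log2 differences were 3.51 ± 0.33 ipsilaterally and 5.00 ± 0.44 contralaterally (edgeR adjusted p = 6.14e-10 and 1.18e-10), the first being 3.47 ± 0.36 without the doubtful libraries. The median of the contralateral ampulla lay within the range of the floor, so the contralateral difference rests on few reads in the ampulla. SLC43A1 had 43.0, 75.9 and 103 CPM in the ipsilateral isthmus and 7.72, 20.9 and 30.7 CPM in the ampulla, again without overlap, and rose by 1.81 ± 0.14 ipsilaterally (edgeR adjusted p = 8.07e-12) and by 1.66 ± 0.15 contralaterally (3.27e-10). Without the doubtful libraries the ipsilateral difference was 1.88 ± 0.17.

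SLC1A4 had 144, 298 and 446 CPM in the ipsilateral isthmus and 44.7, 76.5 and 119 CPM in the ampulla, and 205, 467 and 795 CPM against 38.2, 74.3 and 127 CPM on the contralateral side. It separated the regions fully on both sides, with log2 differences of 1.97 ± 0.15 (edgeR adjusted p = 7.72e-12) and 2.53 ± 0.15 (2.05e-14). The first was 2.10 ± 0.16 without the doubtful libraries. SLC38A2 rose more on the contralateral side (143, 169 and 228 CPM against 74.9, 100.3 and 149 CPM, by 0.78 ± 0.09, edgeR adjusted p = 2.35e-08) than on the ipsilateral side (by 0.30 ± 0.09, 0.00673), a difference tested with the sides. SLC38A1 rose by 0.52 ipsilaterally and by 1.02 ± 0.11 contralaterally (21.4, 36.5 and 49.9 CPM against 10.5, 17.4 and 22.4 CPM, edgeR adjusted p = 1.62e-08). The regions overlapped for both SLC38 carriers. SLC6A17 rose on both sides (1.66 and 1.31), SLC1A5 ipsilaterally (0.59) and SLC6A15 contralaterally (0.90), while SLC6A20 fell by 0.43 and by 0.45. The contralateral call for SLC6A17 was lost without any 1 of Heifers A and C and Non-lactating A, D and E.

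Of the 5 inner-membrane or little-studied SLC38A carriers, 4 were lower and SLC38A7 higher in the ipsilateral isthmus. SLC38A7 held 23.6, 35.2 and 48.7 CPM in the ipsilateral isthmus against 11.5, 15.6 and 21.1 CPM in the ampulla, without overlap, and rose by 1.10 ± 0.11 (edgeR adjusted p = 9.95e-10; 1.13 ± 0.12 without the doubtful libraries), and contralaterally by 1.44 ± 0.16 (1.97e-08). SLC38A11 was near the floor in the isthmus on both sides (means 0.234 and 0.233 CPM) and held 0.454, 3.00 and 7.51 CPM in the ipsilateral ampulla. Its fitted differences of -3.80 ± 0.50 and -3.82 ± 0.56 (edgeR adjusted p = 2.24e-07 and 1.55e-06) rest on isthmus counts at or near 0, and the ipsilateral one was -3.78 ± 0.54 without the doubtful libraries. SLC38A6 fell by 0.61 and by 0.49, and SLC38A10 and SLC38A9 fell ipsilaterally by 0.26 and by 0.33, the call for SLC38A9 being lost without the doubtful libraries.

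SLC1A1, the neuronal and epithelial glutamate carrier EAAT3, had 48.2, 117 and 186 CPM in the ipsilateral isthmus against 6.36, 28.5 and 47.3 CPM in the ampulla. On the contralateral side it had 59.0, 165 and 227 CPM against 2.93, 15.4 and 39.8 CPM. The regions did not overlap on either side, and the log2 differences were 2.10 ± 0.19 and 3.19 ± 0.28 (edgeR adjusted p = 3.95e-10 and 1.25e-10), the first being 2.34 ± 0.22 without the doubtful libraries. In the cationic group SLC7A4 rose on both sides (0.63 and 0.80), the ipsilateral call being lost without the doubtful libraries, and SLC7A2 rose contralaterally (0.58), a call lost without any 1 of 6 animals (Heifers A and E, Lactating A and B, Non-lactating A and E).

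SLC6A9 rose by 0.87 ± 0.14 contralaterally (106, 272 and 394 CPM against 79.9, 146 and 231 CPM, edgeR adjusted p = 8.29e-06) and by 0.36 ± 0.14 ipsilaterally (257, 345 and 525 CPM against 141, 274 and 396 CPM, 0.0296), with overlap on both sides. The ipsilateral call was lost without any 1 of Heifer D, Lactating C and Non-lactating E. SLC6A6 rose on both sides (2.13 and 2.54) at means of no more than 2.51 CPM. SLC6A8 rose by 0.20 and by 0.45, and the ipsilateral call was lost without the doubtful libraries or any 1 of 7 animals (Heifers B, C and D, Lactating B, Non-lactating A, C and E). SLC36A2 fell by 1.67 and by 1.38, and SLC36A4 rose ipsilaterally by 0.37. One silent gene was called contralaterally, SLC36A3 (log2 difference -2.21 ± 0.73, edgeR adjusted p = 0.0142), from a mean of 1.26 CPM in the ampulla to 0.260 CPM in the isthmus, and the animal block ended that call.

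The comparison of sides asked whether the epithelium next to the CL differs from that of the opposite oviduct. It uses the same libraries as the comparison of regions, and the ciliated, endothelial, secretory and smooth muscle marker sums given above also moved with side. In the isthmus with all 3 groups together, 16 of 36 members tested were called by edgeR where 28.4% of all genes were called, 10 higher (14.9% of all genes) and 6 lower (13.5% of all genes) on the ipsilateral side, at a median log2 difference of -0.01 for the members and for all genes alike. By role, 3 of 5 exchanger chains tested and all 3 SLC43A carriers were higher ipsilaterally and none lower, 2 of 3 glutamate carriers and 1 of 3 cationic carriers were lower and none higher, and the small neutral carriers went both ways. With every animal left out in turn, 13 to 16 members were called.

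**Figure D3:**
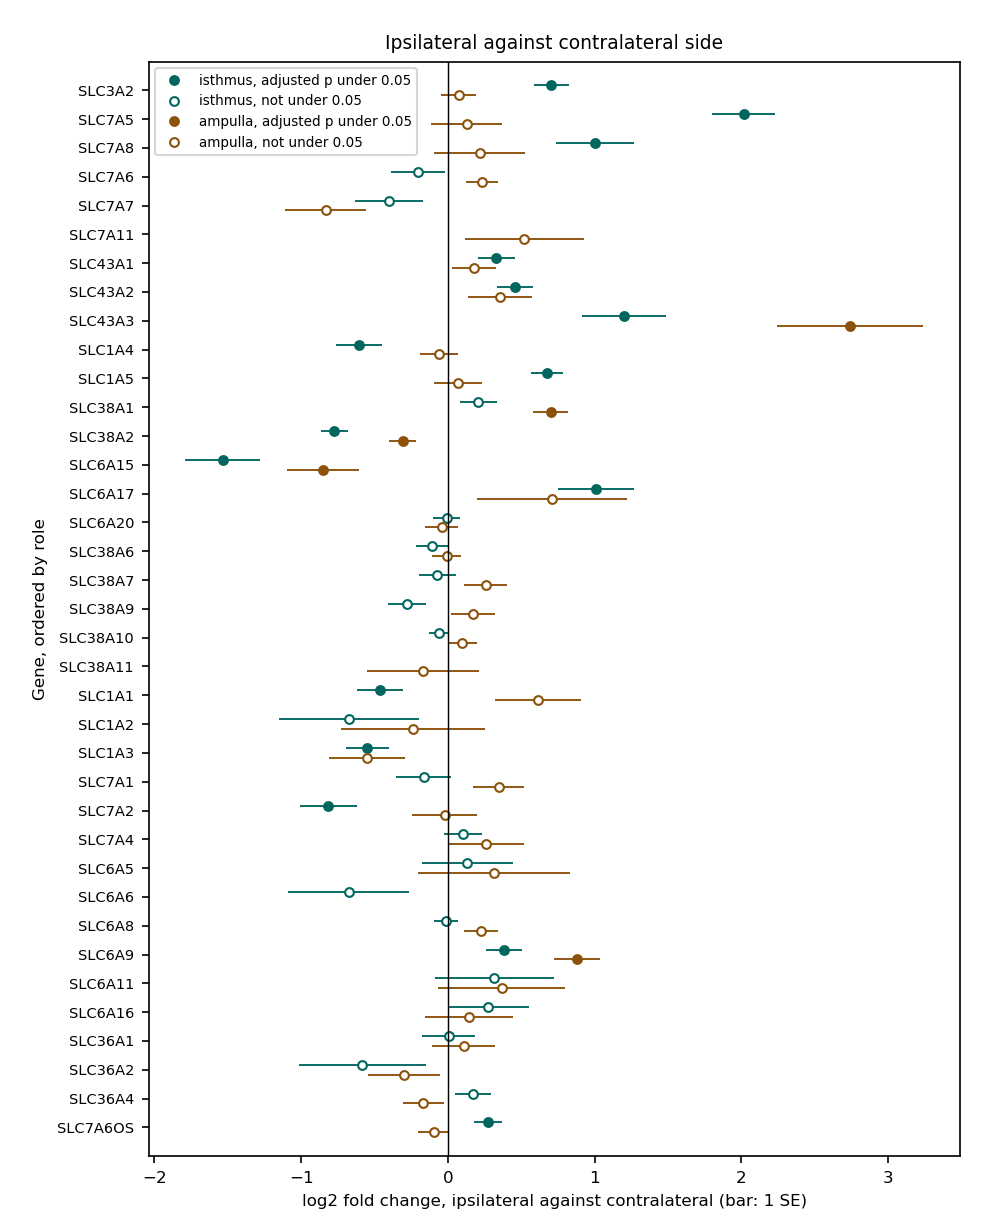
Log2 difference of 37 expressed members between the ipsilateral and the contralateral side, with bars of 1 standard error, in the isthmus (teal) and the ampulla (brown), 14 libraries per side and region. Filled points had an adjusted p under 0.05. SLC7A5 lies at 2.02 in the isthmus and at 0.13 in the ampulla, and SLC43A3 lies above 0 in both (1.20 and 2.74).

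SLC7A5 had 23.9, 40.3 and 124 CPM in the ipsilateral isthmus and 5.23, 9.10 and 46.0 CPM in the contralateral isthmus. It was higher ipsilaterally in 14 of 14 animals, and the sides overlapped through the contralateral library of Heifer C alone. The log2 difference was 2.02 ± 0.21 (edgeR adjusted p = 1.46e-07). SLC3A2, its heavy chain, had 108, 153 and 239 CPM against 65.0, 89.4 and 194 CPM and was higher in 13 of 14 animals, by 0.71 ± 0.12 (edgeR adjusted p = 7.35e-05). SLC7A8, which pairs with the same heavy chain, was higher in 13 of 14 animals by 1.0 at low levels (4.48 against 2.27 CPM, edgeR adjusted p = 0.00560).

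SLC1A5 had 34, 50.6 and 79.3 CPM ipsilaterally and 21.8, 32.2 and 47.3 CPM contralaterally, and was higher in 14 of 14 animals by 0.68 ± 0.11 (edgeR adjusted p = 5.63e-05). SLC38A2 ran the other way, with 64.5, 108 and 149.5 CPM against 143, 169 and 228 CPM, lower in 14 of 14 animals by 0.77 on the log2 scale (-0.77 ± 0.09, edgeR adjusted p = 6.81e-07). Only the highest ipsilateral library of SLC38A2 reached into the contralateral range. SLC6A15 was lower in 14 of 14 animals as well, with 1.28, 3.89 and 11.5 CPM against 6.85, 14.9 and 20 CPM (-1.54 ± 0.25, edgeR adjusted p = 5.26e-05). SLC1A4 fell by 0.61 (310.2 against 467 CPM, edgeR adjusted p = 0.00486) and SLC6A17 rose by 1.01 ± 0.26 (6.05 against 2.82 CPM, 0.00415). Of the 7 small neutral carriers tested, 2 were thus higher and 3 lower.

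SLC43A3 had 42.4, 112 and 189 CPM ipsilaterally and 12, 41.2 and 169 CPM contralaterally, and was higher in 13 of 14 animals by 1.20 ± 0.29 (edgeR adjusted p = 0.00221). SLC7A2, a cationic amino acid carrier that brings arginine into cells, was lower in 13 of 14 animals, by -0.81 ± 0.20 (10.3 against 18.0 CPM, edgeR adjusted p = 0.00238). The other calls were SLC1A3 (-0.55), SLC43A2 (0.46), SLC6A9 (0.38), SLC1A1 (-0.46), SLC7A6OS (0.27) and SLC43A1 (0.33). Of all 16, the calls for SLC1A1 (lost without any 1 of Heifers A and E, Lactating A, Non-lactating A, C and D), SLC7A6OS (without any 1 of Heifers A and E, Non-lactating C and D) and SLC43A1 (without any 1 of 10 animals, that is Heifers A, B, D and E, Lactating B, C and D, Non-lactating B, D and E) depended on single animals. The other 13 held with each animal left out. The animal block gave SLC7A6OS an edgeR adjusted p of 0.0588.

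**Figure D4:**
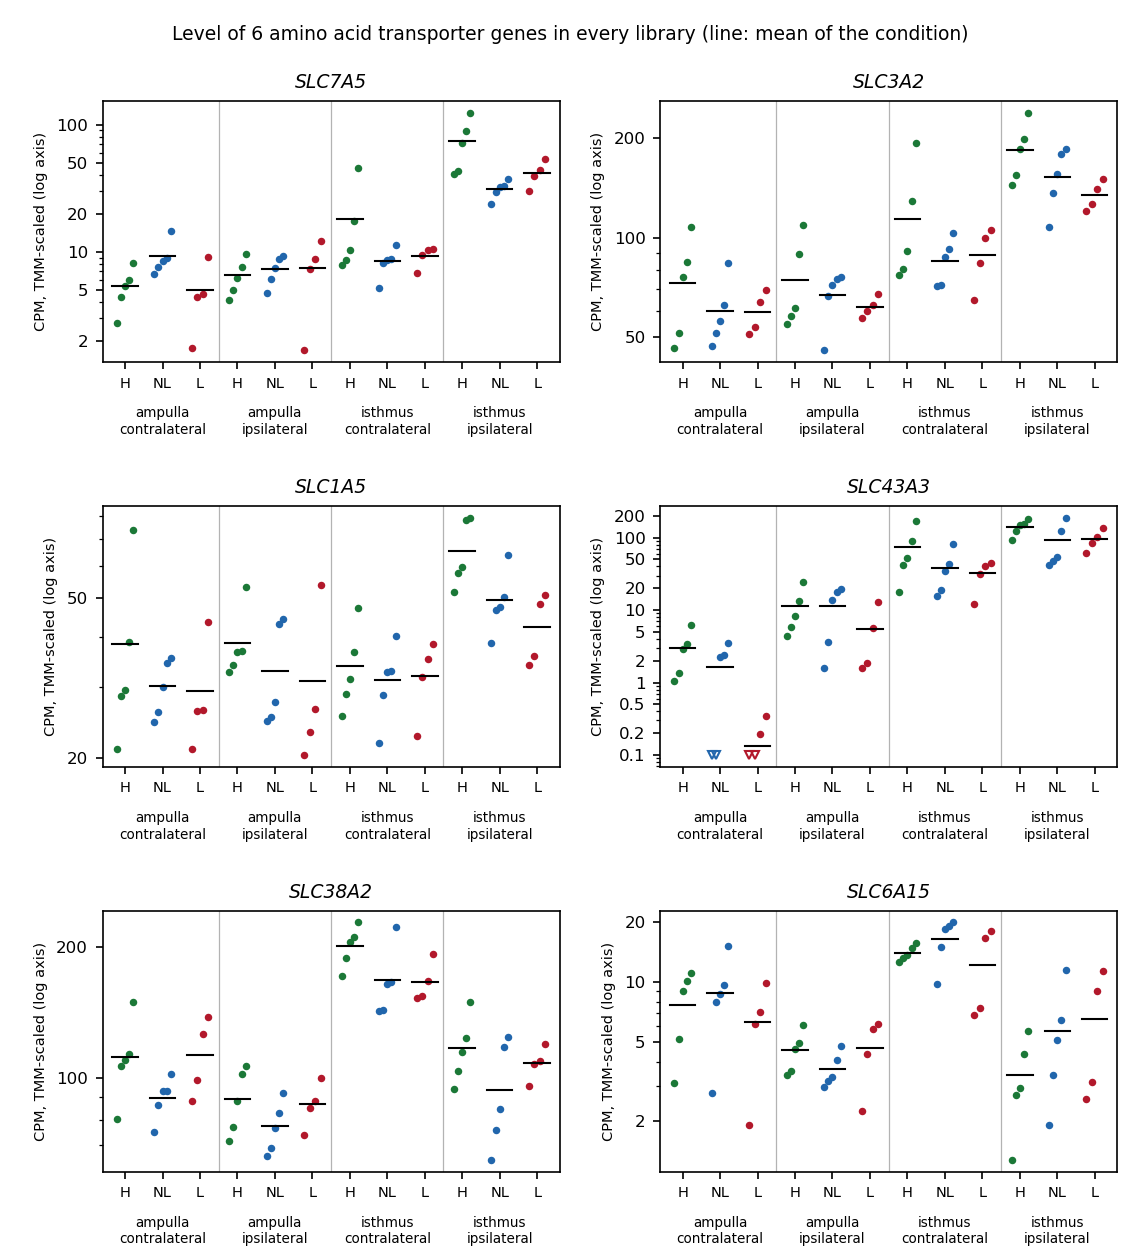
CPM per library on a log axis for SLC7A5, SLC3A2, SLC1A5, SLC43A3, SLC38A2 and SLC6A15 in the 12 conditions. Points are libraries of heifers (H, green), non-lactating (NL, blue) and lactating cows (L, red), lines are condition means, and open triangles are libraries at 0 drawn at 0.1. SLC7A5 lies between 23.9 and 124 CPM in the ipsilateral isthmus and at no more than 14.5 CPM in the ampulla.

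Within the metabolic groups, SLC7A5 was called in each. In heifers it held 43.1, 124, 88.7, 41.1 and 71.6 CPM in the ipsilateral isthmus of animals A to E and 8.64, 17.3, 46.0, 7.86 and 10.3 CPM in the contralateral isthmus, a log2 difference of 1.98 ± 0.47 (edgeR adjusted p = 0.0224). In non-lactating cows A to E it held 32.9, 29.7, 37.5, 32.1 and 23.9 CPM against 8.63, 11.4, 8.82, 8.21 and 5.23 CPM, a difference of 1.90 ± 0.20 (edgeR adjusted p = 0.00113). In lactating cows A to D it held 30.3, 44.4, 39.5 and 53.9 CPM against 9.38, 10.4, 6.85 and 10.6 CPM, a difference of 2.18 ± 0.22 (edgeR adjusted p = 0.0104). The sides overlapped in heifers and in neither group of cows.

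Heifers had 5 members called of 33 tested where 10% of all genes were called, 3 higher (5.71% of all genes) and 2 lower (4.34%). Beside SLC7A5 these were SLC6A15 (-2.04 ± 0.29), SLC38A2 (-0.81), SLC1A5 (0.91) and SLC6A17 (1.43). SLC6A15 held 1.28, 4.35, 2.73, 5.72 and 2.94 CPM in the ipsilateral and 14.9, 13.8, 12.6, 15.7 and 13.2 CPM in the contralateral isthmus of heifers A to E, without overlap (edgeR adjusted p = 0.00560). With the animal block, for which no share of all genes is given, 9 were called, SLC1A4, SLC38A9, SLC3A2 and SLC43A3 being added. Without the block the count fell to 3 without Heifer A or B and to 2 without Heifer E. Non-lactating cows had 7 of 33 called against 5.11% of all genes. The 3 higher (2.94% of all genes) were SLC7A5, SLC3A2 (0.83) and SLC1A5 (0.66), and the 4 lower (2.17% of all genes) were SLC38A2 (-0.86), SLC7A2 (-1.06), SLC6A15 (-1.59) and SLC1A4 (-0.99). Leaving out 1 non-lactating cow gave 1 call without A, 3 without B, 2 without C or D and 4 without E.

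Lactating cows had 1 of 35 members called, SLC7A5, higher ipsilaterally, against 0.187% of all genes (0.144% higher, 0.0432% lower), and none without Lactating B, C or D. With the animal block, for which no share of all genes is given, 4 were called, SLC38A2, SLC3A2 and SLC43A3 being added. In the unblocked test these 3 had no overlap between sides: SLC38A2 held 95.5 to 119.6 CPM ipsilaterally against 153 to 193 CPM, SLC3A2 120.2 to 151 CPM against 65.0 to 106 CPM, and SLC43A3 61.5 to 136 CPM against 12 to 45.1 CPM. Whether the side difference of the isthmus itself differed between the groups was tested with an interaction term, and none of 36 members was called (0% of all genes; none at an unadjusted p under 0.05, and none by DESeq2's likelihood ratio test), with the smallest p at SLC38A1 (0.102) and SLC1A4 (0.110). With the animal block 4 members had an unadjusted p under 0.05 and none was called.

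In the ampulla with the groups together, 5 of 37 members tested were called by edgeR against 4.99% of all genes, 3 higher (2.57% of all genes) and 2 lower (2.42%) ipsilaterally, with a median log2 difference of 0.13 for the members and -0.01 for all genes. Without the doubtful libraries 3 were called, all higher. SLC38A1 had 15.9, 27.5 and 41.3 CPM ipsilaterally and 10.5, 17.4 and 22.4 CPM contralaterally and was higher by 0.70 ± 0.12 (edgeR adjusted p = 0.00110, and 0.00447 without the doubtful libraries). SLC6A9, the glycine carrier, had 141, 274 and 396 CPM against 79.9, 146 and 231 CPM and was higher by 0.88 ± 0.16 (edgeR adjusted p = 0.00156, and 0.00823 without). SLC43A3 had 1.58, 7.15 and 24.6 CPM against 0, 1.19 and 6.19 CPM and was higher by 2.74 ± 0.50 (edgeR adjusted p = 0.00190, and 0.00401 without). The contralateral level of SLC43A3 was near the floor, and its difference rests on few reads. The sides overlapped for all 3 genes, yet in the 10 animals with an undoubted library each was higher ipsilaterally in 10 of 10, and the calls held with every animal left out. The 2 lower genes, SLC6A15 (-0.85, edgeR adjusted p = 0.0378) and SLC38A2 (-0.31, 0.0406), were not called without the doubtful libraries. Leaving out 1 animal gave 3 calls without Heifers B, C or D, Lactating A or B or Non-lactating A, C or D.

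By group, the ampulla gave few calls. Heifers had none of 33 members called by edgeR (0% of all genes) or DESeq2, with 5 at an unadjusted p under 0.05, the smallest at SLC38A1 (0.71) and SLC43A3 (1.93), both with an adjusted p of 0.319. Without the doubtful libraries none was called and 6 were at an unadjusted p under 0.05. In non-lactating cows 1 of 32 was called against 0.0947% of all genes, SLC6A9. It held 186 to 396 CPM ipsilaterally and 100.2 to 163 CPM contralaterally, without overlap (1.09 ± 0.19, edgeR adjusted p = 0.0375, and 0.0337 without the doubtful libraries), and was not called without any 1 of Non-lactating A, B, C, D and E. With the animal block SLC43A3 was called there too. In lactating cows none of 30 was called (0% of all genes), the smallest p being at SLC6A9 (0.91) and SLC38A2 (-0.39). With the animal block SLC6A9 was called in lactating cows (0.80, edgeR adjusted p = 0.00633), and DESeq2 called SLC43A3.

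The difference between the 2 side effects, isthmus minus ampulla, was tested directly with an interaction term. Of 39 members tested 4 were called by edgeR against 5.89% of all genes, and 2 without the doubtful libraries. SLC7A5 had a difference of 1.90 ± 0.32 (edgeR adjusted p = 0.000206, and 0.00142 without the doubtful libraries), its side effect being 2.02 in the isthmus and 0.13 in the ampulla. It was called with every animal left out. SLC38A2 had a difference of -0.47 ± 0.13 (edgeR adjusted p = 0.0208, and 0.0254 without). SLC3A2 (0.63 ± 0.18, 0.0221) and SLC1A1 (-1.08 ± 0.34, 0.0422) were not called without the doubtful libraries. With the animal block, for which no share of all genes is given, 8 were called, SLC1A4, SLC1A5, SLC38A1 and SLC7A2 being added. Leaving out 1 animal gave 1 call without Heifer E and 2 without Heifer A, Heifer B or Non-lactating B.

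The 3 metabolic groups were compared within each region and side, which asks whether lactation or calving changed the epithelium. These 12 comparisons share groups, heifers, for example, entering 8 of them, and they are not independent. No member was called by edgeR in any of the 12, with 31 to 35 members tested and 0 to 6 at an unadjusted p under 0.05. Over all genes, edgeR called 0.0073% for non-lactating cows against heifers in the ipsilateral isthmus and 0% in each of the others. These shares are edgeR's alone, and none is given for DESeq2. With DESeq2 the paper reported differentially expressed genes between heifers and each group of cows in that isthmus. DESeq2 called 1 member over the 12. It was SLC7A5 in non-lactating cows against heifers in the ipsilateral isthmus, with 23.9 to 37.5 CPM in the cows and 41.1 to 124 CPM in heifers, without overlap (-1.22 ± 0.27, edgeR adjusted p = 0.136; DESeq2 adjusted p = 0.00276).

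The members with the smallest p in the isthmus had differences that did not pass the test. Between lactating cows and heifers, SLC1A5 in the ipsilateral isthmus held 35.8, 50.9, 34 and 48.2 CPM in lactating cows A to D and 51.8, 79.3, 78.4, 57.8 and 59.8 CPM in heifers A to E, without overlap (-0.61 ± 0.17, edgeR adjusted p = 0.305), and SLC6A17 differed by -1.25 ± 0.38 (0.321). In the contralateral isthmus SLC38A1 held 28.5, 35.7, 21.4 and 37.3 CPM in lactating cows and 45.6, 45.3, 49.9, 49.2 and 38.6 CPM in heifers, without overlap (-0.57 ± 0.16, edgeR adjusted p = 0.372), followed by SLC7A2 (-0.66). The same gene stood first for non-lactating cows against those heifers, with 22.1, 32.6, 31.2, 28.9 and 37.5 CPM (-0.59 ± 0.14, edgeR adjusted p = 0.438), followed by SLC38A7 (-0.51). In the ipsilateral isthmus SLC7A6 followed SLC7A5 in non-lactating cows against heifers (0.70, edgeR adjusted p = 0.330). Between the groups of cows, the smallest p were at SLC7A5 (0.44) and SLC1A1 (0.59) ipsilaterally and at SLC7A2 (-0.78) and SLC43A2 (0.55) contralaterally.

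In the ampulla the smallest p between lactating cows and heifers were at SLC1A4 (-0.54) and SLC43A2 (-0.65) ipsilaterally and at SLC1A4 (-0.80 ± 0.24, 58.4 against 104 CPM) and SLC6A16 (1.06) contralaterally. Between non-lactating cows and heifers they were at SLC43A2 (-0.56) and SLC1A3 (0.69) ipsilaterally and at SLC6A9 (-0.54) and SLC7A5 (0.81) contralaterally. Between the groups of cows they were at SLC43A1 (-0.56) and SLC7A1 (-0.55) ipsilaterally and at SLC38A2 (0.33) and SLC7A5 (-0.88) contralaterally. The edgeR adjusted p of these genes was at least 0.562, and no member was called in the ipsilateral ampulla without the doubtful libraries either.

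Over all the comparisons, 30 of the 38 expressed members were called at least once, where 69.1% of the 15373 genes with a mean of at least 1 CPM were. Those called in none included SLC1A2, SLC6A5, SLC6A11, SLC6A16, SLC7A1, SLC7A7 and SLC36A1. SLC1A2, SLC6A5, SLC6A11 and SLC7A7 were among the low members, with no condition mean above 5.35 CPM.

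Genes that act around the transporters were followed in 4 lists, which were chosen with earlier results of these data known. Their counts beside the shares of all genes are therefore a description and not a test. In the isthmus between the sides, where 14.9% of all genes were called higher and 13.5% lower (28.4% in all), the list of the amino acid response and amino acid synthesis (20 genes found, 16 tested) had 8 higher and 1 lower ipsilaterally at a median log2 difference of 0.23, beside -0.01 for all genes. Its calls with the smallest adjusted p were ALDH18A1, which starts proline synthesis (0.60, edgeR adjusted p = 4.35e-06), CBS of cysteine synthesis (0.85), PSAT1 of serine synthesis (0.65) and MTHFD2 of mitochondrial folate metabolism (0.78). The enzymes of glutamine, glutamate, arginine, creatine and taurine metabolism (22 tested) also had 8 higher and 1 lower, at a median of 0.25, led by ODC1, the first enzyme of polyamine synthesis (1.31, 41.4 against 16.4 CPM), GOT2 (0.44), GLUD1 (0.82) and GOT1 (0.60). Of 18 carriers of other families 3 were higher and 1 lower, at a median of -0.07. SLC25A29, the mitochondrial carrier of basic amino acids, differed the most clearly, by 1.76 ± 0.18 (52.5 against 15.1 CPM, edgeR adjusted p = 7.14e-08). The genes of amino acid sensing at mTORC1, the growth-controlling kinase complex on the lysosome, had 5 higher and 4 lower of 23, at a median of 0.10. LAMTOR4 (0.50) and LAMTOR5 (0.49), subunits of the lysosomal anchor, were among the higher, and the sestrin SESN3 (-0.97) and the folliculin partner FNIP1 (-0.52) among the lower.

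Between the regions, 50.3% of all genes were called on the ipsilateral side (24.5% higher, 25.8% lower) and 43.5% on the contralateral side (21.5% higher, 22% lower). The response and synthesis list had 8 higher and 3 lower of 16 tested on the ipsilateral side and 5 higher and 4 lower of 18 on the contralateral side, PHGDH, the first enzyme of serine synthesis, rising by 2.16 and by 2.56. The metabolic enzymes had 8 higher and 5 lower of 22, and 8 higher and 4 lower of 22, with GLUD1, the glutamate dehydrogenase, at 2.17 and 1.13. The sensing list had 8 higher and 3 lower of 23, and 7 higher and 5 lower of 23. The carriers of other families had 6 higher and 4 lower of 18, and 6 higher and 3 lower of 18, with SLC18A2, a vesicular monoamine carrier, at 4.72 and 4.43. Between the sides of the ampulla, where 4.99% of all genes were called, the called genes of the 4 lists included PHGDH (0.87), ALDH18A1 (0.44), SLC25A29 (0.73) and SESN3 (-0.60). The numbers tested and called per list are not given there, so these genes show no shift of a whole list.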

How the data were processed

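Read counts per gene were measured in 56 single-end, strand-specific RNA-seq libraries (NuGEN Encore kit, HiSeq) of oviduct epithelium from 14 animals. The authors aligned the reads to the bovine genome Btau_4.6.1 with TopHat2 2.0.13, after demultiplexing with bcl2fastq 1.8.4, and deposited raw counts from HTSeq 0.6.1 (strand-aware, intersection-strict). Only 8.66 to 13.7% of the counted reads of a library fell on genes, and 5 rows that name no gene were left out of library sizes and tests. Columns carry a group and an animal number, and were mapped to groups by name.

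Genes were tested with edgeR 4.0.16 (quasi-likelihood F test, TMM scaling, filterByExpr at a minimum count of 10 in each fit, Benjamini-Hochberg adjustment over all genes tested, threshold 0.05) under R 4.3.3 with limma 3.58.1. Standard errors are the log2 difference divided by the square root of F. The 24 comparisons used groups as labelled, with no animal term. Those of regions and of sides thus took libraries of the same animals as independent, and their p-values are not those of a paired design. The shares of all genes come from these fits, and none is given for the alternatives. Alternatives were DESeq2 1.42.0, its size factors within edgeR, no filter, an animal block, each animal left out and, for the ipsilateral ampulla, omission of the 4 doubtful libraries. The block without those libraries was added after the data were seen. The code was tested on simulated data.

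The same animal gave all its libraries, by the animal numbers, and same-animal libraries deviated together (median correlation of deviations 0.39 between the sides of the isthmus, 11 of 14 pairs over 0.1, and 0.22 in the ampulla, 9 of 14). Regions correlated at 0.20 ipsilaterally and 0.21 contralaterally. No pair of libraries within a condition agreed within sampling noise (104 pairs, lowest chi-square per degree of freedom 5.54).

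The members and the gene lists were chosen with earlier results of these data known. Every expressed member was named with its range of condition means, apart from 1 that is not reported here, and every called member was named, with full values for at most the 8 smallest adjusted p of a comparison, or the 2 smallest p where none was called. Of each gene list at most 4 called genes were named per comparison. All 55 members matched a RefSeq symbol, and sequences were not used here.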

Additional observations from a re-analysis of the deposited data

Results flagged for a closer look

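A search for outlying libraries covered 17 members, those called in a comparison of sides or for the difference between the side effects. In 204 groups of 4 or 5 libraries, a library was sought that a wide gap, relative to the group's range, set apart. The limits on the gap set apart about 1 in 20 groups by chance where values are independent and normally distributed. The groups here shared libraries and CPM was not transformed, so that share was not tested for them. Such a library, set apart by a wide gap, was found in 11 of the 204 groups. In heifers these were SLC1A3 in the contralateral isthmus (17 CPM in Heifer E, the others at 10.1 to 11.7), SLC1A4 there (695 CPM in Heifer A, the others at 446 to 498), SLC7A5 there (46.0 CPM in Heifer C, the others at 7.86 to 17.3) and SLC7A2 in the ipsilateral isthmus (21.6 CPM in Heifer A, the others at 7.65 to 10.8). In the ampulla of heifers they were SLC1A5 ipsilaterally (53.3 CPM in Heifer D, the others at 32.7 to 37.0) and, contralaterally in Heifer E, SLC6A17 (3.67 CPM, the others at 0.663 to 1.18) and SLC7A6OS (109 CPM, the others at 57.2 to 64.2). In non-lactating cows they were SLC1A4 in the contralateral ampulla (115 CPM in animal C, the others at 66.7 to 72.7), SLC7A5 there (14.5 CPM in animal E, the others at 6.70 to 8.91) and SLC7A8 in the ipsilateral ampulla (7.30 CPM in the library numbered B, 1 of the doubtful libraries, the others at 4.31 to 4.97). In lactating cows SLC43A2 had a low library in the contralateral isthmus (6.20 CPM in animal C, the others at 8.69 to 8.98).

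The side effect differed between the isthmus and the ampulla, by an interaction term in edgeR, for SLC7A5 (1.90), SLC38A2 (-0.47), SLC3A2 (0.63) and SLC1A1 (-1.08). The last 2 were not called without the doubtful libraries.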

How the results depend on the processing

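No result reversed. The 114 results for single genes followed the called members of a comparison, or the 2 smallest p where none was called. Under 1834 alternatives, 1699 kept their side of the threshold, 132 lost the call and 3 gained it. Where a comparison had a call, other members that an alternative added, as with the animal block, are not counted among the gains. Counts of members called moved by over 1.5 times as follows. Ipsilateral against contralateral isthmus gave 8 in heifers with DESeq2 and 9 with the animal block (5 as reported), and 4 in lactating cows with each of these (1 as reported). The ampulla with groups together gave 3 without the filter and 3 without the doubtful libraries, with or without the block (5 as reported). The ampulla of non-lactating cows gave 2 with DESeq2, 2 with the block and 2 with the block and without the doubtful libraries (1 as reported), and that of lactating cows 1 under each of these (0 as reported). Non-lactating cows against heifers in the ipsilateral isthmus gave 1 with DESeq2 (0 as reported). The difference between the side effects gave 8 with the block and 2 without the doubtful libraries (4 as reported). The cause was not tested. Leaving out each animal gave 2 to 5 in the isthmus of heifers, 1 to 4 in that of non-lactating cows, 0 to 1 in that of lactating cows, 3 to 5 in the ampulla with groups together, 0 to 1 in that of non-lactating cows and 1 to 5 for the difference between the side effects. It gave 22 to 26 for the regions ipsilaterally, 21 to 25 contralaterally and 13 to 16 for the isthmus with groups together. The animal block changed no other count by over 1.5 times. Depth limits the low members: SLC38A11, SLC6A6 and SLC7A11 lay near the floor of 3 reads in a region, as did SLC43A3 in the contralateral ampulla, and their fitted differences rest on few reads.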
